A study of Mus musculus with 8 samples.

Results

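The heat shock proteins and the factors that work with them were followed as a set of 10 genes in mouse bone marrow neutrophils. The set was chosen by name: the cytosolic HSP90 genes Hsp90aa1 and Hsp90ab1, the HSP70 genes Hspa1a, Hspa1b and Hspa8, the HSP110 gene Hsph1, the mitochondrial chaperonin genes Hspd1 and Hspe1, the HSP40 gene Dnajb1, and Hsf1. All 10 were found among the 24421 genes of the count table, and all 10 were among the 12254 genes with at least 1 count in at least 2 libraries that were tested. Hspa1a entered the test only through its Padi4 KO libraries, because it had no count in any WT library.

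Heat shock proteins are molecular chaperones, which hold unfolded proteins, help them to fold and pass them on. HSP70 proteins bind short exposed stretches of a client with the help of HSP40 (J-domain) partners and of nucleotide exchange factors such as HSP110, and hand some clients to HSP90. Their genes are the classical targets of HSF1, a transcription factor that is kept inactive by chaperones and is released when misfolded proteins accumulate. It then binds heat shock elements, which are repeats of the unit GAA in alternating orientation. Some members, such as Hspa8 and Hsp90ab1, are expressed in nearly all cells, whereas Hspa1a and Hspa1b are known for low levels in resting cells and a steep rise under stress.

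RNA was sequenced from neutrophils isolated magnetically from the bone marrow of 8-week-old female C57BL/6 mice that were wild type (WT) or lacked Padi4 (Padi4 KO, made by deleting the first exon in the same background). Padi4 encodes peptidylarginine deiminase 4, an enzyme that converts arginine to citrulline in histones and other proteins. Cells of each genotype were left unstimulated or given R848, an agonist of Toll-like receptor 7, at 1 µg/ml for 6 h, and each of the 4 groups had 2 libraries. The labels mark the unstimulated libraries with 0 h while the methods describe 6 h in culture for them too, so an R848 response may also include time in culture. Below, values before R848 are those of the unstimulated libraries, whichever time applies. The methods say that samples were run in duplicate and the labels do not say whether the 2 libraries of a group came from separate mice, so they may be repeat libraries of 1 sample and p-values measure only the spread between these libraries.

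Between 562446 and 1177972 reads per library were counted on genes. Levels are given in CPM, counts scaled to a common library total, with TMM factors of 0.804 to 1.25, which were highest in unstimulated Padi4 KO libraries. The deleted gene had 527 and 590 counts in unstimulated WT, 166 and 234 in WT after R848, and 21 to 54 counts in the 4 Padi4 KO libraries. Of 12 neutrophil markers in the table, 12 were detected over the 8 libraries together. Their summed level was 154100 to 168900 CPM of the library total in WT and 125400 to 134700 CPM in Padi4 KO.

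Heat shock elements were looked for first, because they are the feature these genes are best known to share. RefSeq promoters of build GRCm38.p6 were given for 6 of the 10 members, namely Hspa1a, Hspa1b, Hsph1, Hspd1, Hspe1 and Dnajb1. The 250 bases before each start site were searched on both strands for 3 units (GAANNTTCNNGAA or TTCNNGAANNTTC) and for 2 units (GAANNTTC or TTCNNGAA), where a 3-unit match also holds 2-unit matches. A 3-unit match was present in 0.466% of the 32851 promoters of the table and a 2-unit match in 12.8%. Hspe1 and the second start site of Hspd1 hold the same stretch of 4 alternating units, which counts as 2 overlapping 3-unit matches, read from opposite strands, and 5 of the 6 genes hold a 2-unit match. No match was found before the first start site of Hspd1, which lies upstream of that stretch, or before either start site of Dnajb1. The elements follow with the matched bases in capitals: the Hspe1 and Hspd1 windows first because these genes lie head to head and share this stretch, and the Hspa1a and Hspa1b windows because they are identical.
Hspe1, chr1:55088053-55088082, plus strand: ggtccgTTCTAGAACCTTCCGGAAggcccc
Hspd1, chr1:55088053-55088082, minus strand: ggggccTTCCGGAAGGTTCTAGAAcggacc
Hspa1a, chr17:34972228-34972285, minus strand: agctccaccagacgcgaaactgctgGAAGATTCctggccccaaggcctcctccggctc
Hspa1b, chr17:34959310-34959367, minus strand: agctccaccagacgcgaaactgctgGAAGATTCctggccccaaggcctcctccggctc
Hsph1, chr5:149636351-149636380, minus strand: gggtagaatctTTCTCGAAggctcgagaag

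The Hspe1 element lies 72 to 89 bases before the Hspe1 start site and 127 to 144 bases before the second Hspd1 start site. In the GENCODE annotation, Hspd1 (chromosome 1, 55077835 to 55088243, minus strand) and Hspe1 (55088132 to 55091307, plus strand) overlap by 112 bases at their first exons. Hspa1b (chromosome 17, 34956436 to 34959238) and Hspa1a (34969190 to 34972156) lie on the same strand with 9951 bases between them, and 247 of the 250 bases before their start sites are identical. A match describes these letters and does not show that a factor was bound there. Units with other letters or other spacing were not searched for, so a missing match does not show that an element is missing.

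Reads from some members cannot be placed with certainty. Of the words of 50 bases in the main annotated transcript, 74.8% in Hspa8, 66.3% in Hspa1a, 62.3% in Hspa1b, 58.5% in Hsp90aa1 and 44.8% in both Hspd1 and Hspe1 also occur in a transcript of another gene, mostly annotated pseudogenes or, for the Hspa1 pair, each other. The share was 4.49% in Hsp90ab1, 0.441% in Dnajb1 and 0 in Hsph1 and Hsf1. The strand setting of the counting is not given in the sources used here, so reads in the overlap of Hspd1 with Hspe1, and of Hspa1a with Gm20481, may belong to either gene.

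Levels were compared between genes as CPM per kilobase of annotated exon, counting every base in any annotated exon of the gene. This length was 4301 bases for Hspa8, 7266 for Hsph1 and 7099 for Hsf1. Their main annotated transcripts have 2394, 3802 and 2104 bases. For Hsp90ab1 the lengths were 2999 and 2520 bases. The order and overlaps of genes below hold for this length only, and shared sequence may also affect them. In unstimulated WT neutrophils, Hspa8 (123 to 127 CPM per kb) and Hsp90ab1 (114 to 130 CPM per kb) stood far above the others and overlapped each other. Hsp90aa1 (17.6 to 20.8 CPM per kb), Dnajb1 (15.1 to 19.3 CPM per kb) and Hspd1 (15.2 to 16.3 CPM per kb) formed the next tier, in which Dnajb1 overlapped both neighbours. Hspe1 (3.51 to 6.29 CPM per kb) and Hsf1 (1.74 to 3.89 CPM per kb) overlapped, Hsph1 lay at 0.238 to 0.638 CPM per kb, and neither Hspa1 gene had a count. In unstimulated Padi4 KO neutrophils Hspa8 (240 to 245 CPM per kb) and Hsp90ab1 (224 to 249 CPM per kb) again led, followed by Hspd1 (65.9 to 66.2 CPM per kb), Hspe1 (42.3 to 46.0 CPM per kb) and Hsp90aa1 (38.8 to 40.3 CPM per kb), which did not overlap each other. Dnajb1 then lay at 17.4 to 18.7 CPM per kb, Hspa1b (3.63 to 5.24 CPM per kb) overlapped Hsph1 (4.20 to 4.82 CPM per kb), and Hsf1 (1.91 to 3.27 CPM per kb) was above Hspa1a (1.52 to 1.71 CPM per kb).

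**Figure D1:**
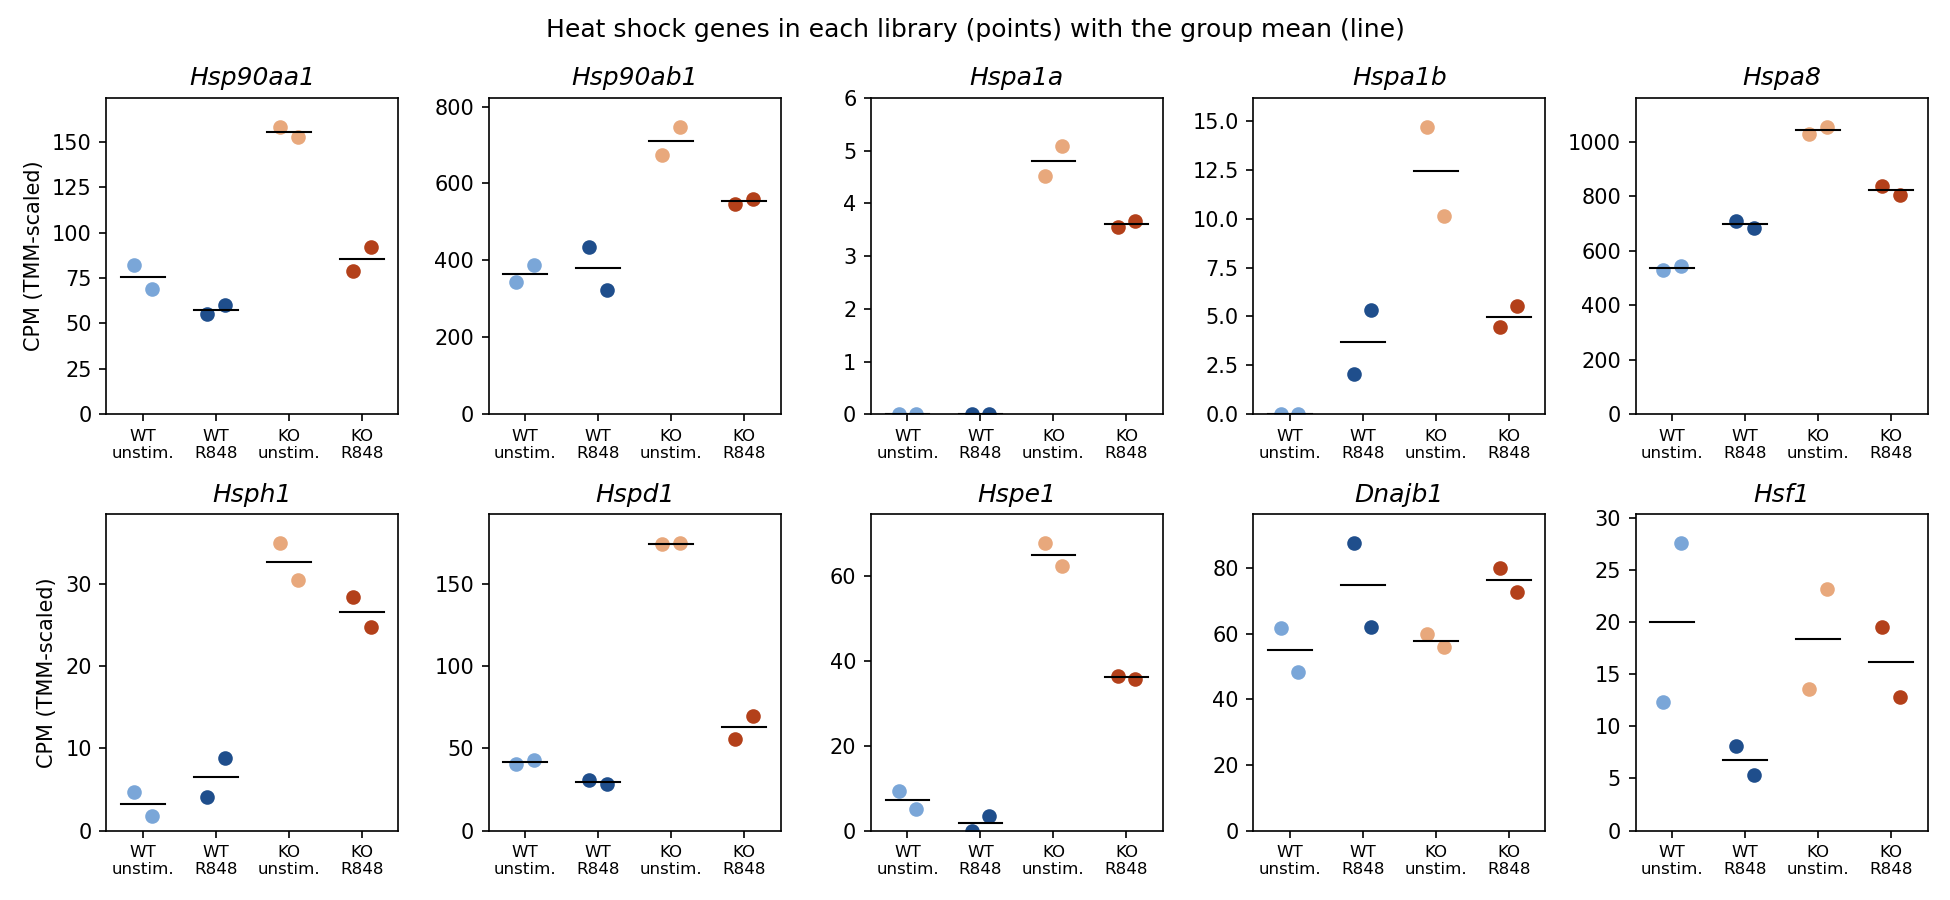
Level of each of the 10 genes in CPM scaled by TMM factors (linear axes from 0, a separate scale for each gene), with 1 point per library and a line at the mean of the 2 libraries of a group. Both unstimulated Padi4 KO libraries lie above every WT library for Hsp90ab1 (673 and 747 CPM) and Hspa8 (1031 and 1056 CPM), while the unstimulated points of Dnajb1 and Hsf1 overlap between the genotypes.

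Padi4 KO was first compared with WT without stimulation, which asks whether the genotypes differed in the absence of the agonist. Of the 9 genes with a WT count in either condition, 7 were higher in Padi4 KO and none was lower at a false discovery rate (FDR) below 0.1, where 9.55% of all genes tested were higher and 14.4% were lower. The 10 genes together took 0.109% and 0.116% of all gene counts in unstimulated WT and 0.276% and 0.290% in unstimulated Padi4 KO. The median log2 fold change over the 9 genes was 1.03, with Hspa1b set to what a floor of 3 counts in each WT library allows, against -0.03 over all genes tested. Hspa1a is left out of these counts, because a gene tested only through its Padi4 KO libraries could only be called higher. Hspa1b is among the 7 but had no count in unstimulated WT, so in this comparison it too could only be called higher.

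Of the cytosolic HSP90 genes, Hsp90aa1 encodes the stress-inducible form and Hsp90ab1 the constitutive form. Hsp90aa1 had 81.9 and 69.1 CPM in WT and 158 and 152 CPM in Padi4 KO. Hsp90ab1 had 343 and 389 CPM in WT and 673 and 747 CPM in Padi4 KO. For both genes the groups did not overlap, and the fold was 2.04 and 1.95. The log2 fold change was 1.03 ± 0.17 (SE) for Hsp90aa1 (adjusted p = 5.02e-08) and 0.97 ± 0.10 for Hsp90ab1 (adjusted p = 1.28e-21) under edgeR's quasi-likelihood test and Benjamini-Hochberg adjustment.

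Hspa8 encodes HSC70, the constitutive cytosolic HSP70. It had 529 and 546 CPM in unstimulated WT and 1031 and 1056 CPM in unstimulated Padi4 KO, which did not overlap. Its log2 fold change was 0.96 ± 0.09 (edgeR's quasi-likelihood test, Benjamini-Hochberg adjusted p = 2.98e-26). Hsph1, which encodes HSP110, a nucleotide exchange factor of HSP70, had 3 and 1 counts in WT (4.64 and 1.73 CPM) and 31 and 42 counts in Padi4 KO (35.1 and 30.5 CPM). The groups were far apart, and the log2 fold change of Hsph1 was 3.25 ± 0.53 (edgeR's quasi-likelihood test, Benjamini-Hochberg adjusted p = 2.9e-08). On so few WT counts it was 4.12 without replicate 1 and 2.76 without replicate 2 of unstimulated WT, and passed in both.

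The stress-inducible HSP70 genes were near the limit of detection. Hspa1b had no count in either unstimulated WT library, where 3 counts would be 4.91 CPM on average with TMM factors, and 13 and 14 counts (14.7 and 10.2 CPM) in unstimulated Padi4 KO. Against a floor of 3 counts in each WT library, Hspa1b was at least 2.53-fold higher in Padi4 KO. The test (edgeR's quasi-likelihood test, Benjamini-Hochberg adjusted p = 0.000118) was of the fitted comparison with no WT count, not of this bound. Hspa1a had no WT count and 4 and 7 counts (4.52 and 5.08 CPM) in Padi4 KO, a level at the floor itself, so neither a fold nor a test is given. Since the 2 genes share most of their sequence, their counts were also added: the sum was 0 and 0 counts in WT and 17 and 21 counts in Padi4 KO.

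Hspd1 (HSP60) and Hspe1 (HSP10) encode the barrel and the lid of the chaperonin of the mitochondrial matrix, and are the pair whose shared stretch of units is printed above. Hspd1 had 40.2 and 43.2 CPM in unstimulated WT and 174 and 175 CPM in unstimulated Padi4 KO. Hspe1 had 6 and 3 counts in WT (9.28 and 5.18 CPM) and 60 and 86 counts in Padi4 KO (67.8 and 62.4 CPM). Neither gene overlapped between the genotypes. The log2 fold change was 2.07 ± 0.19 for Hspd1 (adjusted p = 2.64e-24) and 3.11 ± 0.36 for Hspe1 (adjusted p = 2.13e-15) under edgeR's quasi-likelihood test and Benjamini-Hochberg adjustment.

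The co-chaperone Dnajb1, an HSP40 that delivers clients to HSP70, and the transcription factor Hsf1 did not share the difference. Dnajb1 had 61.8 and 48.3 CPM in unstimulated WT and 59.9 and 55.9 CPM in unstimulated Padi4 KO. Hsf1 had 12.4 and 27.6 CPM in WT and 13.6 and 23.2 CPM in Padi4 KO. The libraries of the genotypes overlapped for both. The log2 fold change was 0.05 for Dnajb1, with an interval of 2 SE from -0.39 to 0.50, and -0.01 for Hsf1, with an interval from -0.77 to 0.75, and neither passed (edgeR's quasi-likelihood test, Benjamini-Hochberg adjusted p = 0.92 and 0.997). At 8 to 32 counts of Hsf1 per library, a change within its interval could not be detected.

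After R848, 6 of the 9 genes were higher in Padi4 KO than in WT, none being lower, where 9.46% of all genes tested were higher and 7.81% were lower. The median of their log2 fold changes was 0.56, against 0.08 over all genes tested. Hspe1 differed most, with 0 and 2 counts in WT (0 and 3.54 CPM) and 41 and 39 counts in Padi4 KO (36.4 and 35.8 CPM). Its log2 fold change was 4.15 ± 0.61 (edgeR's quasi-likelihood test, Benjamini-Hochberg adjusted p = 5.27e-10), a size that rests on 2 WT counts; it was 3.16 without replicate 1 of WT given R848, and without replicate 2 no WT count was left to set a size.

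Hsph1 and Hspd1 were also well separated after R848. Hsph1 had 2 and 5 counts in WT (4.08 and 8.85 CPM) and 32 and 27 counts in Padi4 KO (28.4 and 24.8 CPM). Hspd1 had 30.6 and 28.3 CPM in WT and 56.0 and 69.9 CPM in Padi4 KO. The groups of both did not overlap, with a log2 fold change of 1.98 ± 0.49 for Hsph1 (adjusted p = 0.000941) and 1.09 ± 0.27 for Hspd1 (adjusted p = 0.000975) under edgeR's quasi-likelihood test and Benjamini-Hochberg adjustment. The value of Hsph1 was 2.59 without replicate 2 of WT given R848, and as low as 1.43 when another single library was left out.

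The HSP90 genes and Hspa8 did not overlap between the genotypes after R848 either. Hsp90ab1 had 434 and 324 CPM in WT and 547 and 561 CPM in Padi4 KO, a log2 fold change of 0.56 ± 0.10 (edgeR's quasi-likelihood test, Benjamini-Hochberg adjusted p = 9.69e-07). Without replicate 2 of WT given R848 it was 0.27 and did not pass (adjusted p = 0.129). Hsp90aa1 had 55.0 and 60.2 CPM in WT and 79.1 and 91.9 CPM in Padi4 KO (log2 fold change 0.56 ± 0.21, adjusted p = 0.0591), and Hspa8 had 709 and 685 CPM in WT and 840 and 804 CPM in Padi4 KO (log2 fold change 0.24 ± 0.09, adjusted p = 0.0431). For Hsp90aa1 and Hspa8 the call was lost with DESeq2 (adjusted p = 0.429 and 0.571), with RLE factors (0.144 and 0.328), with thinned counts (0.119 and 0.362) and without any one of the 4 libraries given R848 (adjusted p of 0.14 to 0.482 and of 0.383 to 0.662).

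Among the members that did not pass after R848, Hsf1 had 8.15 and 5.31 CPM in WT and 19.6 and 12.9 CPM in Padi4 KO. The groups did not overlap, on 3 to 22 counts (log2 fold change 1.27 ± 0.55; edgeR's quasi-likelihood test, Benjamini-Hochberg adjusted p = 0.114). Hspa1a had 0 and 0 counts in WT and 4 and 4 counts in Padi4 KO, and Hspa1b had 1 and 3 counts in WT and 5 and 6 counts in Padi4 KO. Dnajb1 overlapped, with 87.6 and 62.0 CPM in WT and 80.0 and 72.6 CPM in Padi4 KO.

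**Figure D2:**
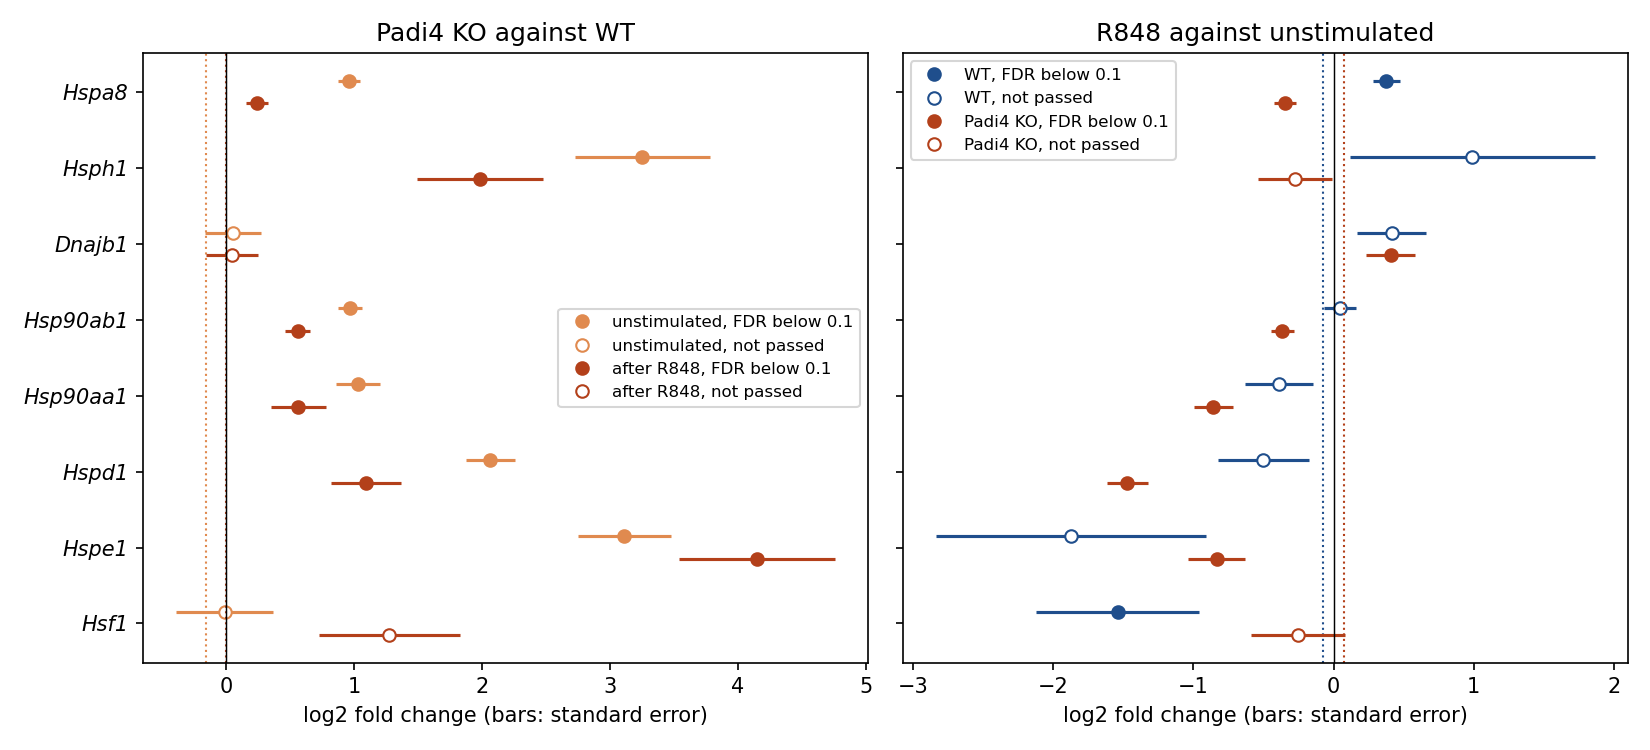
Log2 fold change ± SE of 8 genes in Padi4 KO against WT (left) and after R848 against unstimulated (right), from 2 libraries per group; filled points passed at an FDR below 0.1 and dotted lines give the median over the 6912 genes with at least 10 counts on average. Hspa1a and Hspa1b are left out because at least 1 WT group had no count of them. On the left every filled point lies above 0; on the right the WT and Padi4 KO points of Hspa8 lie at 0.38 and -0.35.

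The response to R848 within each genotype was examined next, to ask what the agonist did to these genes. In WT, 2 of the 9 genes with a count were higher and 1 was lower after R848, where 13.5% of all genes tested were higher and 16.0% were lower. The lower gene, Hsf1, changed more than 2-fold, where 10.8% of genes did. Of the 2 higher genes, where 7.17% rose more than 2-fold, Hspa8 rose by less, and Hspa1b was at or under the floor and allows no fold. In Padi4 KO, 1 gene was higher and 6 were lower, where 19.2% and 15.9% of genes were, and 2 were lower by more than 2-fold, where 8.84% of genes were; no member was higher by more than 2-fold, where 8.07% of genes were. The median of the fitted log2 fold changes was 0.04 over the 9 genes in WT and -0.39 over 10 members in Padi4 KO, against -0.17 and -0.03 over all genes tested.

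In WT, Hspa8 went from 529 and 546 CPM to 709 and 685 CPM, without overlap. The log2 fold change of Hspa8 was 0.38 ± 0.10 (edgeR's quasi-likelihood test, Benjamini-Hochberg adjusted p = 0.000664); it was 0.07 with scaling by library size alone (adjusted p = 0.635). Hsf1 fell from 12.4 and 27.6 CPM to 8.15 and 5.31 CPM (log2 fold change -1.54 ± 0.58; edgeR's quasi-likelihood test, Benjamini-Hochberg adjusted p = 0.0345). This call of Hsf1 was lost without replicate 2 of unstimulated WT (-0.88, adjusted p = 0.498), without replicate 2 of WT given R848 (-1.15, adjusted p = 0.304) and with DESeq2 (adjusted p = 0.207). Hspa1b passed on 0 and 0 counts before and 1 and 3 counts after R848, levels at or under the floor of 3 counts, and lost its call without either unstimulated WT library (adjusted p = 0.243 and 0.212) or without replicate 2 of WT given R848 (0.341).

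The other WT values did not pass. Hspd1 had 40.2 and 43.2 CPM before and 30.6 and 28.3 CPM after R848, Hsp90aa1 81.9 and 69.1 CPM before and 55.0 and 60.2 CPM after, and Hspe1 6 and 3 counts before and 0 and 2 counts after. Dnajb1 had 61.8 and 48.3 CPM before and 87.6 and 62.0 CPM after (log2 fold change 0.41 ± 0.24; edgeR's quasi-likelihood test, Benjamini-Hochberg adjusted p = 0.232). Hsp90ab1 overlapped, and its log2 fold change of 0.04 ± 0.11 changed sign without replicate 1 of either WT group (-0.04 and -0.03). Without replicate 2 of WT given R848, Hsp90ab1 was at 0.35 (adjusted p = 0.0369) and Dnajb1 at 0.76 (adjusted p = 0.0441), and both passed; Hspe1 then passed too (adjusted p = 0.0779), against 0 counts, which allows no size. With library size alone, which moved the median over the 6912 genes with at least 10 counts on average from -0.07 to -0.38, 1 gene was higher in the WT response and 5 were lower: besides Hsf1, Hsp90aa1 (-0.69, adjusted p = 0.0172), Hsp90ab1 (-0.26, adjusted p = 0.0731), Hspd1 (-0.80, adjusted p = 0.0484) and Hspe1 (-2.15, adjusted p = 0.0725).

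In Padi4 KO, the mitochondrial pair and both HSP90 genes fell after R848. Hspd1 went from 174 and 175 CPM to 56.0 and 69.9 CPM, the largest change of the set in this comparison (log2 fold change -1.47 ± 0.15; edgeR's quasi-likelihood test, Benjamini-Hochberg adjusted p = 4.06e-22). Hspe1 went from 67.8 and 62.4 CPM to 36.4 and 35.8 CPM (log2 fold change -0.83 ± 0.20, adjusted p = 0.000285). Both remained above every WT library of either treatment. Hsp90aa1 fell from 158 and 152 CPM to 79.1 and 91.9 CPM (log2 fold change -0.86 ± 0.14, adjusted p = 1.48e-08), and Hsp90ab1 from 673 and 747 CPM to 547 and 561 CPM (log2 fold change -0.36 ± 0.08, adjusted p = 7.14e-05), by the same test and adjustment. The Hspe1 call was lost with DESeq2 (adjusted p = 0.118).

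Hspa8 also fell in Padi4 KO, from 1031 and 1056 CPM to 840 and 804 CPM (log2 fold change -0.35 ± 0.08; edgeR's quasi-likelihood test, Benjamini-Hochberg adjusted p = 4.46e-05). Hspa1b went from 13 and 14 counts to 5 and 6 counts (log2 fold change -1.24 ± 0.53, adjusted p = 0.0588), a call lost with DESeq2, with thinned counts and without replicate 1 of either Padi4 KO group (adjusted p = 0.263 and 0.165). Dnajb1 was the exception in direction, with 59.9 and 55.9 CPM before and 80.0 and 72.6 CPM after R848. Its log2 fold change of 0.41 ± 0.18 passed (edgeR's quasi-likelihood test, Benjamini-Hochberg adjusted p = 0.0645) but not under DESeq2, RLE factors, library size alone, thinning or without any one of the Padi4 KO libraries or of the WT libraries given R848 (adjusted p of 0.103 to 0.594 over these 6 libraries). Hsph1 (35.1 and 30.5 to 28.4 and 24.8 CPM), Hspa1a (4 and 7 to 4 and 4 counts) and Hsf1 (13.6 and 23.2 to 19.6 and 12.9 CPM) did not pass.

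The difference between the 2 responses, Padi4 KO minus WT, was tested directly in the same fit. Of the 9 genes that had a value, all but Hspa1a, 3 responded lower in Padi4 KO and none higher, where 1.26% of all genes tested were lower and 3.45% were higher. Hspa8 rose in WT and fell in Padi4 KO, and the difference of its log2 fold changes was -0.72 ± 0.12 (edgeR's quasi-likelihood test, Benjamini-Hochberg adjusted p = 1.33e-06); it passed under every alternative run, with values from -0.99 to -0.70 when single libraries were left out. Hsp90ab1 (difference -0.41 ± 0.14, adjusted p = 0.0849) and Hspa1b (adjusted p = 0.0869) passed narrowly by the same test. Hsp90ab1 lost its call without replicate 1 of unstimulated WT (-0.32, adjusted p = 0.424) and without replicate 2 of unstimulated Padi4 KO (-0.33, adjusted p = 0.377), and also with DESeq2 (adjusted p = 0.12) and thinned counts (adjusted p = 0.302). It was larger without replicate 2 of WT given R848 (-0.85, adjusted p = 2.13e-06) and without either Padi4 KO library given R848 (-0.63 and -0.65, adjusted p = 0.0101 and 0.00757). Hspa1b rested on WT groups with 0 and 4 counts in all, and lost its call without any one of 6 of the 8 libraries (adjusted p of 0.118 to 0.429). For Hspd1 the difference was -0.97 ± 0.38 and did not pass (adjusted p = 0.155), although it did without replicate 2 of Padi4 KO given R848 (-1.36, adjusted p = 0.0465) and with RLE factors (-1.13, adjusted p = 0.0903), under which 4 members responded lower. Since both responses and both genotype comparisons use the same libraries, they are not independent of each other.

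Other chaperone genes were read from lists by family, with 151 genes in the table and 136 tested. Without stimulation 32 of the 136 were higher and 8 lower in Padi4 KO (median log2 fold change 0.31), where 9.55% and 14.4% of all genes tested were. That split was 11 and 4 with DESeq2, 56 and 4 with library size alone, 19 and 5 without replicate 1 of unstimulated WT, and 47 and 5 without replicate 2 of WT given R848. After R848 22 were higher and 5 lower (median 0.17), where 9.46% and 7.81% of genes were, but the split was 7 and 7 without replicate 2 of WT given R848, 11 and 6 or 11 and 8 without replicate 1 or 2 of Padi4 KO given R848, and 16 and 10 with RLE factors. The cytosolic chaperonin TRiC, which folds actin and tubulin, and its partner prefoldin had 9 of 14 genes higher and 1 lower without stimulation, and 4 higher and none lower after R848, to be read against the same shares of all genes. Tcp1, a TRiC subunit, had 51.0 and 41.4 CPM in unstimulated WT and 114 and 112 CPM in unstimulated Padi4 KO (log2 fold change 1.28 ± 0.20; edgeR's quasi-likelihood test, Benjamini-Hochberg adjusted p = 1.51e-08). The subunit genes Cct3 and Cct6a had log2 fold changes of 1.23 ± 0.23 and 1.20 ± 0.21.

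Mitochondrial chaperones and proteases had 4 of 11 genes higher in unstimulated Padi4 KO and 5 of 11 after R848, and none lower, against 9.55% and 9.46% of all genes tested that were higher. Lonp1, a protease of the mitochondrial matrix, had 23.2 and 15.5 CPM in WT and 49.8 and 42.1 CPM in Padi4 KO without stimulation, and 12.2 and 21.3 CPM against 56.9 and 58.8 CPM after R848. Trap1, the HSP90 of mitochondria, had 13.9 and 25.9 CPM in WT and 40.7 and 36.3 CPM in Padi4 KO without stimulation, and 6.11 and 8.85 CPM against 32.0 and 28.5 CPM after R848. For both genes the genotypes did not overlap at either condition. After R848 the log2 fold change was 1.75 ± 0.32 for Lonp1 (adjusted p = 1.38e-06) and 1.98 ± 0.46 for Trap1 (adjusted p = 0.000311) under edgeR's quasi-likelihood test and Benjamini-Hochberg adjustment. The unstimulated call of Trap1 (log2 fold change 0.95) was lost with DESeq2 and without replicate 1 of unstimulated WT.

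In the other HSP70 and HSP110 family, 3 of 9 genes were higher without stimulation and 1 after R848, against the same 9.55% and 9.46%. Hspa9, the mitochondrial HSP70 that drives protein import, had 34.0 and 17.3 CPM in unstimulated WT and 123 and 126 CPM in unstimulated Padi4 KO. Its log2 fold change was 2.25 ± 0.23 without stimulation (adjusted p = 3.52e-20) and 1.24 ± 0.22 after R848 (adjusted p = 7.13e-07) under edgeR's quasi-likelihood test and Benjamini-Hochberg adjustment. The unstimulated value was 2.85 without replicate 1 and 1.87 without replicate 2 of unstimulated WT. Of the cofactors of HSP70, 3 of 11 were higher and 1 lower without stimulation, and of the other J-domain proteins 7 of 37 were higher and 3 lower, against 9.55% higher and 14.4% lower over all genes tested.

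HSP90 co-chaperones were mixed, with 5 of 25 higher and 3 lower without stimulation and 4 higher and 1 lower after R848, against 9.55% and 14.4%, and 9.46% and 7.81%, of all genes tested. Fkbp4, an immunophilin that joins HSP90 to steroid receptors, had 24.7 and 20.7 CPM in unstimulated WT and 88.2 and 74.0 CPM in unstimulated Padi4 KO (log2 fold change 1.80 ± 0.26; edgeR's quasi-likelihood test, Benjamini-Hochberg adjusted p = 3.47e-10). Fkbp5, its close relative and a known target of the glucocorticoid receptor, went the other way, with 374 and 406 CPM in WT and 104 and 95.1 CPM in Padi4 KO (log2 fold change -1.98 ± 0.13, adjusted p = 7.16e-51). Both pairs of groups lay far apart.

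Chaperones of the endoplasmic reticulum showed 1 of 18 genes higher, Pdia4 (log2 fold change 1.08 ± 0.32, not passed with DESeq2 or without replicate 1 of unstimulated WT), and none lower without stimulation, and none in either direction after R848; their median log2 fold change was 0.19 and 0.04. Among HSF family genes and regulators of HSF1 none of 8 passed without stimulation, where 9.55% of all genes tested were higher and 14.4% lower. After R848 2 were lower, where 7.81% of all genes tested were: Ier5 (log2 fold change -0.49 ± 0.10) and Hsbp1 (-0.58 ± 0.22, which passed in 10 of 15 alternatives). Ier5 encodes an activator of HSF1 and had 487 and 526 CPM in WT given R848 and 376 and 347 CPM in Padi4 KO given R848. Of 10 small heat shock proteins, 3 were detected well enough to be tested and none passed. Of all genes tested, 9.55% were higher and 14.4% lower without stimulation, and 9.46% and 7.81% after R848.

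**Figure D3:**
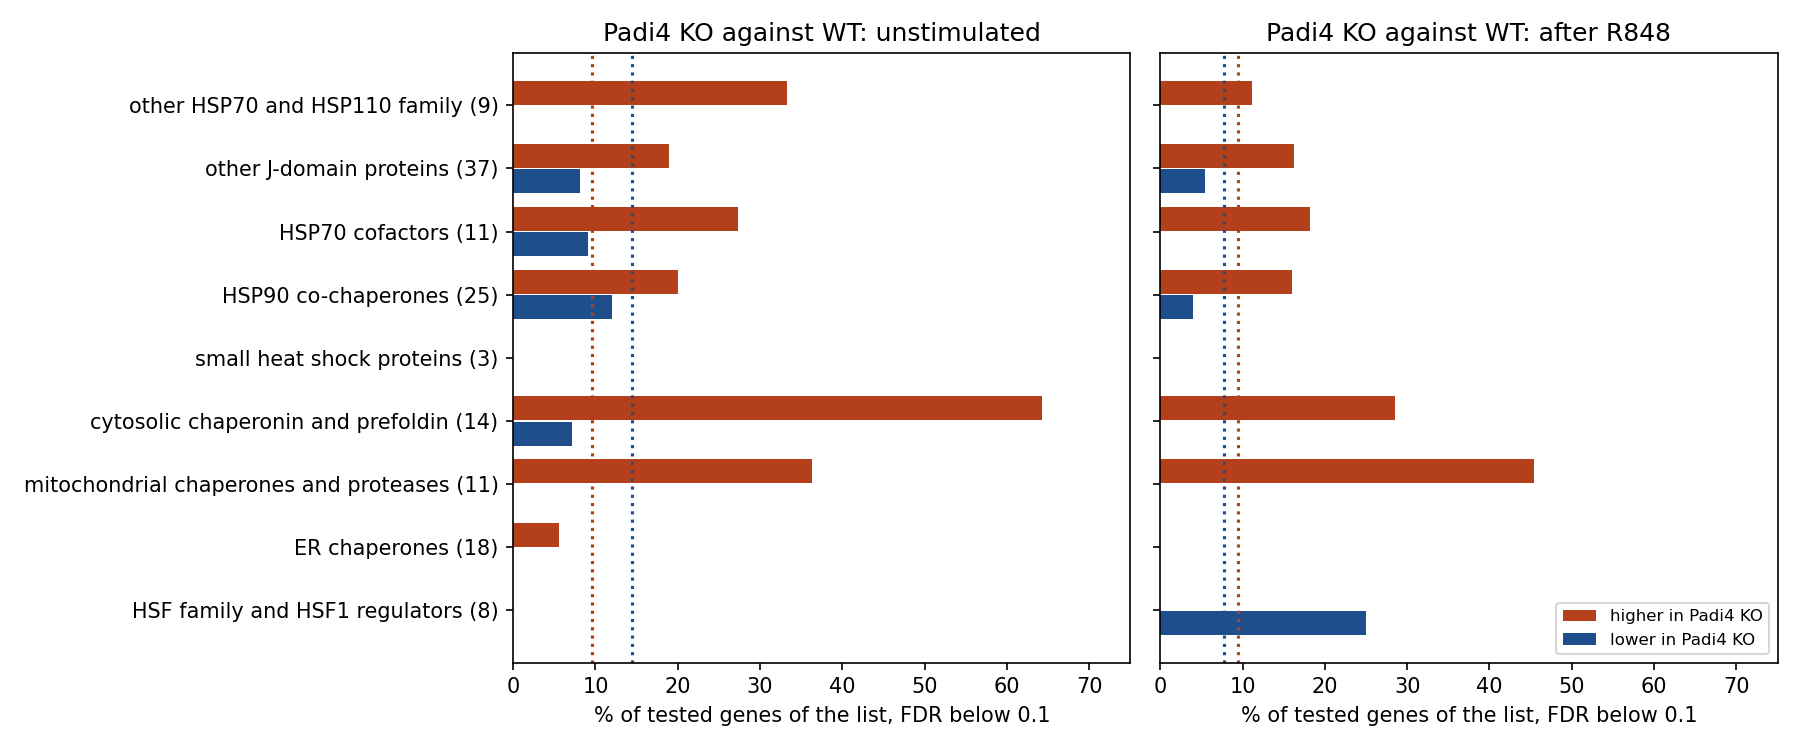
Share of the tested genes of each chaperone list (number tested in brackets) that were higher (red) or lower (blue) in Padi4 KO than in WT at an FDR below 0.1, without stimulation (left) and after R848 (right). Dotted lines give the share over all genes tested, 9.55% higher and 14.4% lower on the left and 9.46% higher and 7.81% lower on the right; the red bar of the cytosolic chaperonin and prefoldin (9 of 14 genes) is the longest on the left.

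In response to R848, 14 of the 136 other chaperone genes were higher and 13 lower in WT, where 13.5% and 16.0% of all genes tested were, and 17 were higher and 24 lower in Padi4 KO, where 19.2% and 15.9% were. These splits moved with the scaling and with single libraries: in WT they were 7 and 26 with library size alone and 17 and 3 without replicate 2 of WT given R848, and in Padi4 KO 5 and 61 with library size alone, 15 and 13 without replicate 2 of unstimulated Padi4 KO and 11 and 40 without replicate 1 of WT given R848. Ptges3, the HSP90 co-chaperone p23, rose in WT from 37.1 and 46.6 CPM to 120 and 95.6 CPM (log2 fold change 1.36 ± 0.24; edgeR's quasi-likelihood test, Benjamini-Hochberg adjusted p = 1.73e-07), and Fkbp5 fell from 374 and 406 CPM to 75.4 and 79.7 CPM (log2 fold change -2.32 ± 0.16, adjusted p = 6.14e-46). In Padi4 KO, Fkbp4 fell from 88.2 and 74.0 CPM to 32.9 and 31.3 CPM (log2 fold change -1.31 ± 0.20, adjusted p = 6.93e-10). Ier5 rose in both genotypes, by 1.27 ± 0.12 on the log2 scale in WT and by 0.94 ± 0.11 in Padi4 KO. The response differed between the genotypes for 5 of the 136 genes, with 3 higher and 2 lower in Padi4 KO, where 3.45% and 1.26% of all genes tested were. The direction of this split turned to 2 and 9 with RLE factors, 2 and 5 with library size alone, 3 and 5 with filterByExpr and 3 and 4 with a replicate block. It also turned without any one library given R848. The split kept its direction with no filter beyond 1 count (3 and 2), at an FDR of 0.05 (3 and 1), with thinned counts (2 and 0) and with DESeq2 (1 and 0).

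Genes whose levels followed those of a member most closely were sought over the 8 libraries among 6911 others with at least 10 counts on average, by Pearson's r of log2 CPM. These libraries share their groups and depth, so r is a description. For Hsp90aa1 the closest were Prpf19 (r = 0.983), Atp1b2 (0.982) and its fellow member Hspd1 (0.981). Hsp90ab1 was followed by Gmps (0.988), Ppm1g (0.982) and Kars (0.973), and Hspa8 by Eif3b (0.985), Hdgf (0.968) and Csf2rb2 (0.968). For Hspd1 they were Parp1 (0.986), Hsp90aa1 (0.981) and Sympk (0.979), for Hspe1 Mfsd2b (0.994), Ybx3 (0.994) and Rplp0 (0.992), and for Hsph1 Wfdc17 (0.989), Rbbp7 (0.984) and Metap2 (0.981). Dnajb1 was closest to Vimp (0.956), Snx3 (0.948) and Itpkc (0.943), and Hsf1 to Thoc6 (0.974), Slc25a16 (0.952) and Ncapg (0.943). Among the members themselves r lay between 0.729 and 0.981 for the 6 genes Hsp90aa1, Hsp90ab1, Hspa8, Hsph1, Hspd1 and Hspe1, whereas Dnajb1 had r of -0.456 to 0.17 with the other 7.

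Marker genes of other cells moved with the genotype as well. Of 20 erythroid markers in the table, 14 were detected and 6, all of them hemoglobin genes, were at 0 in every library. Scaled to the library total, the erythroid sum was 161.8 to 187.2 CPM in unstimulated WT, 34.39 to 63.92 CPM in WT given R848, 1769 to 1806 CPM in unstimulated Padi4 KO and 1834 to 1888 CPM in Padi4 KO given R848. Of the 14 detected, 13 were higher in unstimulated Padi4 KO and 14 after R848, where 9.55% and 9.46% of all genes tested were. The sum of 11 detected monocyte and macrophage markers was 544.5 to 615.2 CPM in unstimulated WT and 1296 to 1327 CPM in unstimulated Padi4 KO. It was 2954 to 3060 CPM in WT given R848 and 3134 to 3222 CPM in Padi4 KO given R848. Of the 11, 7 were higher in unstimulated Padi4 KO and none lower, and after R848 4 were higher and 1 lower. Although the sums rose with R848, 4 markers were higher and 4 lower in the WT response, and 4 and 5 in the Padi4 KO response. The median log2 fold change was -1.03 and -0.93 in these responses.

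Of 12 neutrophil markers, 11 were lower in unstimulated Padi4 KO and 10 after R848, where 14.4% and 7.81% of all genes tested were. Stromal and endothelial markers (9 of 10 detected, with Emcn at 0) summed to 218.7 to 251.2 CPM in unstimulated WT and 596 to 751.1 CPM in unstimulated Padi4 KO. After R848 they summed to 35.88 to 40.98 CPM in WT and 48.39 to 51.14 CPM in Padi4 KO. The 6 platelet and megakaryocyte markers summed to 90.68 to 98.29 CPM in unstimulated WT and 177.8 to 202.4 CPM in unstimulated Padi4 KO. With R848 their sum was 13.46 to 18.03 CPM in WT and 35.65 to 41.44 CPM in Padi4 KO. The 10 heat shock genes took 0.107% and 0.0999% of gene counts in WT given R848 and 0.162% and 0.161% in Padi4 KO given R848. Lymphocyte markers (9 of 12 detected, with Ebf1, Cd3e and Cd8a at 0) summed to 8.195 to 23.11 CPM and markers of eosinophils, basophils and mast cells (10 of 12 detected, with Ear2 and Ear6 at 0) to 15.87 to 57.73 CPM. The part of these cells in the results above was not tested. In bulk RNA, fewer cells of a type and less RNA per cell cannot be told apart.

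**Figure D4:**
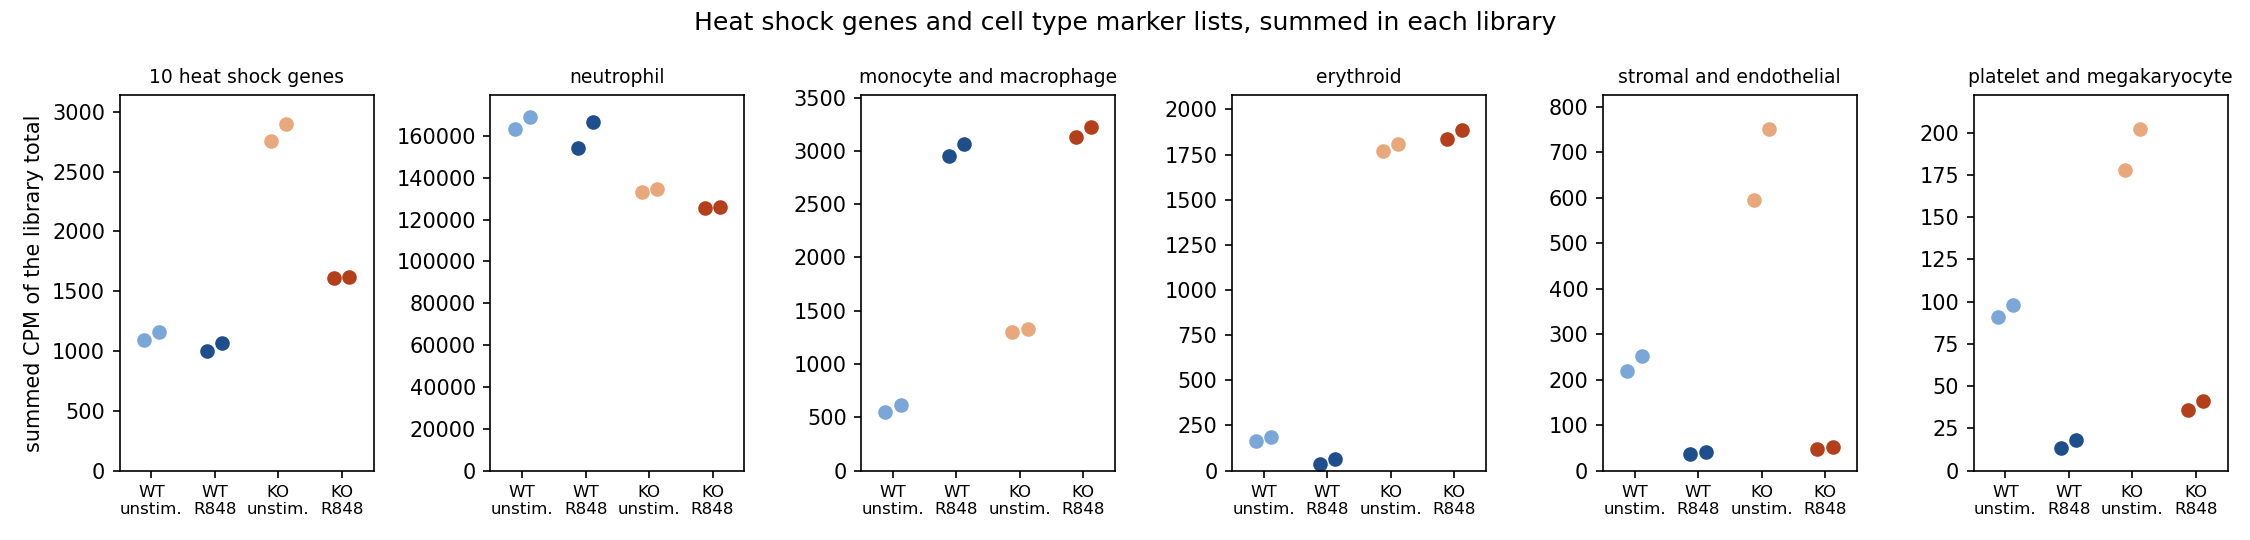
Sum of the 10 heat shock genes and of each marker list in CPM of the library total (linear axes from 0, a separate scale for each panel), with 1 point per library, the lower of the 2 on the left within each group. The heat shock, stromal and platelet sums are highest in unstimulated Padi4 KO, the erythroid sum is high in both Padi4 KO groups (1769 to 1888 CPM), and the neutrophil sum is higher in WT.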

How the data were processed

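Per the labels and the study's methods, RNA from the neutrophils was sequenced in pairs on a MiSeq; the authors checked and trimmed reads with FastQC 0.11.7 and cutadapt 1.16, mapped them to mm10 with STAR 2.5.3a and counted them on genes with HTSeq 0.6.1p1. The deposited values are raw counts per gene symbol, without normalization; the annotation is not given in the sources used here. The 5 summary lines of HTSeq were left out; 87.0% to 89.5% of the counts of each library lay on genes. Groups were taken from the labels.

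All 12254 genes with at least 1 count in at least 2 libraries were fitted in R 4.3.3 with edgeR 4.0.16 (TMM factors, 1 mean per group, robust quasi-likelihood test; common biological coefficient of variation 4.68%). Adjustment was by Benjamini and Hochberg over all of them, and a gene passed at an FDR below 0.1, for responses also above 2-fold where stated. SE is the size of the log2 fold change over the root of its F statistic, and intervals are 2 SE. A floor of 3 counts is 2.55 to 5.33 CPM of the library total and covers counting error only. The 2 libraries of each group differed by more than counting error (chi-square of 1.06 to 1.67 per degree of freedom over genes, p of 4.4e-229 to 0.00015) and were kept as 2, although repeat libraries of 1 sample could differ as much.

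Alternatives were DESeq2 1.42.0, other filters, RLE factors, library size alone, a replicate block, thinned counts, summed Hspa1a and Hspa1b, an FDR of 0.05 and leaving out each library. The model was tested on simulated counts. Named genes were the 10 members, up to 3 genes per list and comparison that passed with the largest change and at least 10 counts on average, and the 3 genes most correlated with each member that had at least 10 counts. Results for some single genes of the lists are not reported here. Members and lists were chosen with earlier results of these data known. Positions are those of GENCODE M21 on GRCm38, the build of mm10.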

Additional observations from a re-analysis of the deposited data

Results flagged for a closer look

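The response to R848 differed between WT and Padi4 KO, by the test of the difference itself (edgeR's quasi-likelihood test, Benjamini-Hochberg adjusted), for 3 of 9 heat shock genes, all lower, where 1.26% of all genes tested were lower and 3.45% higher, and for the other chaperone genes given here, each with 2 libraries per group. Of the 3, Hspa8 alone passed with DESeq2, with thinned counts and at an FDR of 0.05; Hsp90ab1 passed in none of these; Hspa1b missed in the last 2 and had no adjusted p from DESeq2. The differences of log2 fold change, Padi4 KO minus WT, were -0.72 for Hspa8, -0.41 for Hsp90ab1 and -5.98 for Hspa1b; the last is a fitted value against WT libraries with 0 counts and is no measure of size. They were -0.90 for Ptges3 (p23, a co-chaperone of HSP90) and -0.85 for Cct5 (a TRiC subunit), and 1.52 for Fkbp5 and 0.75 for Dnajc14 (a J-domain protein of the endoplasmic reticulum). Under the 15 alternatives that gave a value, Fkbp5 passed in 15, Ptges3 and Cct5 in 11 and Dnajc14 in 5.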

How the results depend on the processing

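Of the calls of single heat shock genes, none changed direction under any alternative; over the 5 comparisons, leaving out Hspa1a against WT, 50 values lost and 13 gained a call. Without stimulation, 7 of the 9 genes other than Hspa1a were higher in Padi4 KO under every alternative run, except that the filterByExpr filter removed Hspa1b and left 6 of 8. When single libraries were left out, the number passing after R848 was 3 to 6 (3 without replicate 2 of WT given R848), that of the WT response 1 to 4, of the Padi4 KO response 5 to 7 and of the difference of response 1 to 3; the group left with 1 library was taken to vary like the others. DESeq2 gave 1 gene in the WT response, 4 in the Padi4 KO response and 1 in the difference; thinned counts and an FDR of 0.05 also gave 1 in the difference, and library size alone gave 6 in the WT response (1 higher, 5 lower). For the other chaperone genes, DESeq2 gave 10, 11 and 1 in the WT response, Padi4 KO response and difference, and 15 and 6 in Padi4 KO against WT without and with R848. An FDR of 0.05 gave 15 in the WT response and 15 in Padi4 KO against WT after R848, library size alone gave 66 in the Padi4 KO response (5 higher, 61 lower), and thinned counts gave 20, 2 and 17 in the Padi4 KO response, the difference and Padi4 KO against WT after R848. The difference also held 8 with filterByExpr and 11 with RLE factors. Leaving out libraries gave 16 to 28 in the WT response, 28 to 51 in the Padi4 KO response, 3 to 12 in the difference (12 without replicate 2 of WT given R848, 10 without replicate 1 of Padi4 KO given R848), 24 to 52 in unstimulated Padi4 KO against WT and 14 to 27 after R848. Values that changed sign had not passed under the main settings, and only 1 passed with the other sign: Hsp90ab1 in the WT response with library size alone (-0.26, adjusted p = 0.0731). The others were Hsp90ab1 in the WT response (-0.0098 with filterByExpr, -0.044 to 0.35 without single libraries), Hsf1 in the Padi4 KO response (0.26 with thinned counts, -0.73 to 0.26 without libraries), Hsf1 in unstimulated Padi4 KO against WT (0.041 with RLE factors, 0.27 with library size alone, -0.52 to 0.64 without libraries), Dnajb1 in Padi4 KO against WT (-0.062 with DESeq2, -0.054 with RLE factors, -0.054 with thinned counts and -0.28 to 0.16 without libraries after R848, -0.11 to 0.25 without libraries before it), Hspa1b after R848 (-0.23 to 1.15 without libraries), and in the difference Hspe1 (-0.083 to 4.70) and Dnajb1 (-0.48 to 0.15). The cause was not tested. Over the 6912 genes with at least 10 counts on average, library size alone moved the median log2 fold change from -0.07 to -0.38 in the WT response, from 0.08 to -0.30 in the Padi4 KO response, from -0.16 to 0.12 in unstimulated Padi4 KO against WT and from -0.002 to 0.21 after R848, and the share of called genes that were higher in the last 2 from 39.9% to 77.2% and from 54.8% to 81.8%, and in the responses from 45.8% to 25.6% (56.8% with DESeq2) and from 54.7% to 24.8%. That share was 73.3% in the difference, but 28.0% with DESeq2, 40.7% with RLE factors and 60.0% with library size alone, and after R848 38.4% with DESeq2 and 42.1% with RLE factors. Library pairs with the same replicate number did not deviate together (r of -0.02 to 0.02 over 6 pairs of groups), so they share only a number; with the replicate block 7, 6, 3, 7 and 3 heat shock genes other than Hspa1a passed in unstimulated Padi4 KO against WT, after R848, the WT response, the Padi4 KO response and the difference, as without it. Depth limits Hspa1a, Hspa1b, Hsph1, Hspe1 and Hsf1, which had fewer than 10 counts in at least 1 group.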

Other observations

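A list of 18 immediate early and stress genes, which respond within minutes to many signals, was read beside the chaperones. After R848, 12 were higher and 5 lower in WT, where 13.5% and 16.0% of all genes tested were. In Padi4 KO 9 were higher and 8 lower, where 19.2% and 15.9% of genes were, and the response was lower in Padi4 KO for 8, where 1.26% of genes were, and higher for none. With R848 15 of the 18 were lower in Padi4 KO than in WT and none was higher, where 7.81% and 9.46% of genes were. Egr1, a zinc finger transcription factor, had 27.8 and 19.0 CPM in unstimulated WT and 175 and 143 CPM in WT given R848, but 37.3 and 30.5 CPM in unstimulated Padi4 KO and 6.22 and 4.60 CPM in Padi4 KO given R848 (difference of response -5.32 ± 0.44 on the log2 scale; edgeR's quasi-likelihood test, Benjamini-Hochberg adjusted p = 2.19e-29). Fos, a subunit of AP-1, had 772 and 813 CPM in unstimulated WT, 1505 and 1414 CPM in unstimulated Padi4 KO, 149 and 142 CPM in WT given R848 and 16.0 and 14.7 CPM in Padi4 KO given R848.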
